A study of Caenorhabditis elegans with 2 samples.

Results

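The cytoplasmic ribosomal protein genes of Caenorhabditis elegans were examined for binding of the transcription factor PAG-3, the worm member of the GFI zinc finger family, known for its part in specifying neurons. Members were the protein-coding genes whose names are rpl-, rps- or rla- followed by a number in the WBcel235 annotation, and 81 of 19973 protein-coding genes met this rule. They comprised 47 genes for large subunit proteins (rpl), 31 for small subunit proteins (rps) and 3 for proteins of the stalk of the large subunit (rla), which helps to recruit the elongation factors. A region was assigned to a gene when its summit, the position of highest enrichment, lay no more than 1000 bp before and 200 bp after the start of a coding transcript, a stretch called the promoter window here. In 48 of the 81 genes (59.3%) this window held a candidate region, and in 6 of them (7.41%) it held a peak that passed the authors' threshold on reproducibility between replicates (irreproducible discovery rate, IDR).

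Ribosomal proteins assemble with ribosomal RNA into the subunits that carry out protein synthesis, and every dividing or growing cell makes them in large amounts and in near equal proportion. Their genes are therefore among the most actively transcribed of the genome. In the worm they are short, several of them carry small nucleolar RNA (snoRNA) genes in their introns, and many worm messenger RNAs are trans-spliced to a leader. Because trans-splicing removes the first stretch of the transcript, an annotated start can lie downstream of the place where transcription begins.

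The study was a chromatin immunoprecipitation and sequencing experiment on whole hermaphrodite late embryos, taken 4 h after synchronization by egg bleaching, with the age in the labels given as unknown. The strain was OP154, with the genotype unc-119(ed3) III; wgIs154, a stable transgenic line that expressed PAG-3 with a C-terminal GFP-FLAG tag, and the immunoprecipitation used an antibody to GFP, although the antibody field of the labels reads pag-3. Chromatin was sheared by sonication, and there were 2 biological replicates of this 1 group. An untagged strain, another stage or the control experiment named in the labels was not analysed here, so no difference between conditions can be given. In whole embryos, binding in few cells and weak binding in many cannot be told apart, and the sources do not say which promoter drives the transgene. The pooled list held 21336 candidate regions, deliberately including background, with signal values from 24.2 to 685; 327 of these were IDR peaks. The lists of replicate 1 and replicate 2 alone held 23022 and 22971 candidates. The signal value is the enrichment score of the authors' peak caller, its scale is not given in the sources used here, and sequencing depth is unknown. Signal values were compared within a list and never between the pooled list and a replicate's list. Where values of replicates 1 and 2 stand side by side, no correction for depth or scale was made here.

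The 6 genes with an IDR peak were rps-24, rpl-3, rpl-15, rpl-43, rpl-20 and rps-28. The sequences of 50 bp on either side of their summits are shown because these 7 peaks (rps-24 had a pair of them) carry the strongest signal at ribosomal protein genes, together with that of rpl-35, the strongest region that was no IDR peak. They were read from the RefSeq genome (WBcel235, the same assembly as ce11) on the strand of the ribosomal protein gene. Capitals mark the word CGAGTGT, the word CTACGGT and the word AAAGGGGAG on either strand, all of which were picked by reading these windows after their values were known and are described further on. None of the windows overlapped an annotated exon of a protein-coding gene, and exons of other genes were not examined.
rps-24, stronger peak, chrIV:385232-385332, plus strand: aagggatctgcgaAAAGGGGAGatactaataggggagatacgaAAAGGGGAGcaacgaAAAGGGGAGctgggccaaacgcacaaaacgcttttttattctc
rps-24, second peak, chrIV:385498-385598, plus strand: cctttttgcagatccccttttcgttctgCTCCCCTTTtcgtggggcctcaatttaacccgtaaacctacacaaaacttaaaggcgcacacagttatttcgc
rpl-3, chrIII:3867532-3867632, plus strand: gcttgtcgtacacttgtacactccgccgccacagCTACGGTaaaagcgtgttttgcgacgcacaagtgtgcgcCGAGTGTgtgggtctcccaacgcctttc
rpl-15, chrIV:654874-654974, minus strand: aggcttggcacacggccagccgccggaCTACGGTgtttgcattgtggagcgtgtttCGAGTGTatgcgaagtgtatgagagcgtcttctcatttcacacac
rpl-43, chrII:14154503-14154603, plus strand: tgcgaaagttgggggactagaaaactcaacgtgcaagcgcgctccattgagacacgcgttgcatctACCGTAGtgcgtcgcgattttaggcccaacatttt
rpl-20, chrIV:4750075-4750175, minus strand: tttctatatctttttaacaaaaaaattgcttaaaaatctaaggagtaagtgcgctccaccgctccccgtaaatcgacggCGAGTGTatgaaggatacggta
rps-28, chrIV:1659153-1659253, plus strand: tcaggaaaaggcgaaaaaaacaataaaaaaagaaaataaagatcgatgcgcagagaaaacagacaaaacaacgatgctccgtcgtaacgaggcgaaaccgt
rpl-35, chrIII:7854677-7854777, plus strand: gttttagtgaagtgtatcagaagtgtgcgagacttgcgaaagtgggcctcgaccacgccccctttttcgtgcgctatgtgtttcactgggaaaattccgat

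A candidate region in the promoter window was found for 48 of 81 ribosomal protein genes (59.3%, 95% Wilson interval 48.4 to 69.3), against 30.9% of all protein-coding genes and 30.8% of the 19892 others. An IDR peak was found for 6 of 81 (7.41%, 3.44 to 15.2), against 1.11% of all protein-coding genes and 216 of the 19892 others (1.09%). Among the genes that had any candidate, an IDR peak was present for 6 of 48 ribosomal protein genes (12.5%), against 3.60% of all such genes. When the 1000 strongest pooled candidates were taken in place of the IDR list, 9 of 81 genes (11.1%) had a region, against 2.56% of all genes, the additions being rpl-35 and the divergent neighbours rpl-24.1 and rps-10. The intervals treat genes as independent, although 5 regions lay in the windows of 2 ribosomal protein genes each, and they cover counting error only. No test over samples exists in a design of 1 group.

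The excess over other genes was present in each replicate's own list. In replicate 1, 53 of 81 ribosomal protein genes (65.4%) had a candidate, against 31.4% of other genes. In replicate 2 the number was 52 of 81 (64.2%), against 32.8%. Taking as many of the strongest regions of each replicate as there were IDR peaks, 6 of 81 genes (7.41%) were hit in replicate 1 against 0.971% of all genes, and 6 of 81 in replicate 2 against 1.06%. The genes rps-24, rpl-3, rpl-15, rpl-43 and rpl-20 were hit in both replicates, rps-28 in replicate 1 alone and rpl-35 in replicate 2 alone.

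The strongest promoter region of a ribosomal protein gene had a median pooled signal of 39.6 (quartiles 31.2 and 52.9, range 24.7 to 195, 48 genes), against a median of 34.2 (quartiles 28.3 and 44.4) over the other genes with a region. Leaving out genes with an IDR peak, the medians were 38.6 and 33.6. A signal of 50 or more was reached by 14 of 81 ribosomal protein genes (17.3%) and by 5.37% of all other genes. The median rank of these strongest regions in the pooled list was 5500 of 21336, and 7 genes stood at a signal of 80 or more.

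**Figure D1:**
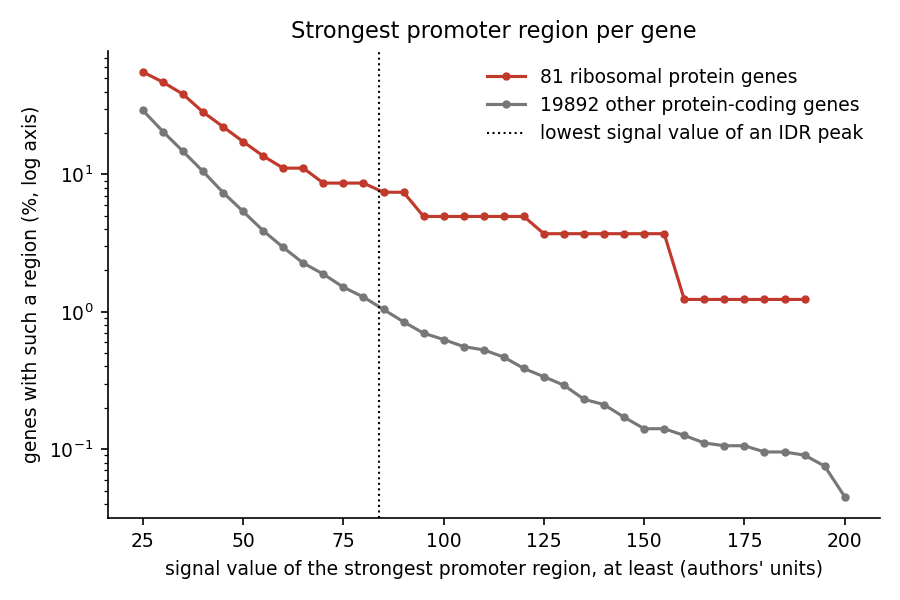
Share of genes (percent, log axis) whose strongest promoter region had at least the pooled signal value on the horizontal axis (authors' units), for the 81 ribosomal protein genes (red) and the 19892 other protein-coding genes (grey), in steps joined by lines; the dotted line is the lowest signal of an IDR peak, 84.0. The red curve lies above the grey one at each step up to 190, and ends there because the highest ribosomal protein value was 195.

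At rps-24, which encodes a protein of the small subunit, the pooled signal was 195 (rank 22 of 21336). The overlapping replicate regions had 74.5 in replicate 1 (rank 38) and 111 in replicate 2 (rank 17), the highest value of any ribosomal protein gene in either list. A second IDR peak of signal 143 (rank 49) lay closer to the gene; its summit was 266 bp from that of the first, the regions overlapped by 184 bp, and both matched the same replicate regions, so they are not independent. The first summit was 605 bp and the second 339 bp upstream of the start of rps-24 (chrIV:385887-386606, plus strand), with no other protein-coding gene in whose window either fell. The nearest start of any gene to the first summit was that of an unnamed pseudogene on the minus strand (WBGene00020295). In the pooled regions of rps-24, 61.0% and 63.9% of the 36-base words occurred once in the genome, where the median over regions at ribosomal protein genes was 100%; the part of this repeat content in the result was not tested. Without regions under 90%, an alternative added after these values were known, 5 of 81 genes had an IDR peak. Regions at other genes were not filtered in this way, so this count has no share of other genes to stand beside it.

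The large subunit protein genes rpl-3 and rpl-15 had nearly equal regions. At rpl-3, which encodes a core protein of the large subunit close to its catalytic centre, the pooled signal was 156 (rank 35), with 65.1 in replicate 1 (rank 62) and 91.1 in replicate 2 (rank 31). The summit lay 272 bp upstream of rpl-3 (chrIII:3867854-3869587, plus strand), in an intergenic stretch used by no other coding gene's window. At rpl-15 the pooled signal was 155 (rank 36), with 64.5 in replicate 1 (rank 64) and 86.8 in replicate 2 (rank 35). Its summit lay 348 bp upstream of rpl-15 (chrIV:653480-654576, minus strand) and 466 bp upstream of the divergent gene K11H12.8. In both replicates these genes ranked below rps-24 and above rpl-43.

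The next genes shared their peak with a neighbour that started closer to it. At rpl-43, a large subunit protein gene (chrII:14155294-14155569, plus strand), the pooled signal was 122 (rank 87), with 51 in replicate 1 (rank 171) and 73.3 in replicate 2 (rank 63). Its summit lay 741 bp upstream of rpl-43 and 180 bp upstream of the divergent gene Y48B6A.1. At rpl-20, also of the large subunit (chrIV:4749123-4749778, minus strand), the pooled signal was 95 (rank 213), with 46.6 in replicate 1 (rank 249) and 49.8 in replicate 2 (rank 266). This summit was 347 bp upstream of rpl-20 and 115 bp upstream of the divergent gene Y17G9B.5. Which gene of each pair a peak belongs to cannot be told from position alone. Counting each IDR peak for its nearest coding start left 4 ribosomal protein genes (4.94%), namely rps-24, rpl-3, rpl-15 and rps-28, against 1.57% of other genes. This count set no limit on distance, so peaks outside the promoter window enter the share of other genes.

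The small subunit protein gene rps-28 (chrIV:1659691-1659997, plus strand) had the lowest of the 7 peaks. Its pooled signal was 91.4 (rank 247), with 50.9 in replicate 1 (rank 174) and 41.4 in replicate 2 (rank 504). It was the single gene of the 6 with a lower value in replicate 2. The summit lay 488 bp upstream, also in the window of Y41D4B.4, which starts 907 bp away on the same strand. A weaker region of signal 42.4 overlapped it by 248 bp, with its summit 286 bp upstream of rps-28, and matched the same replicate regions.

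**Figure D2:**
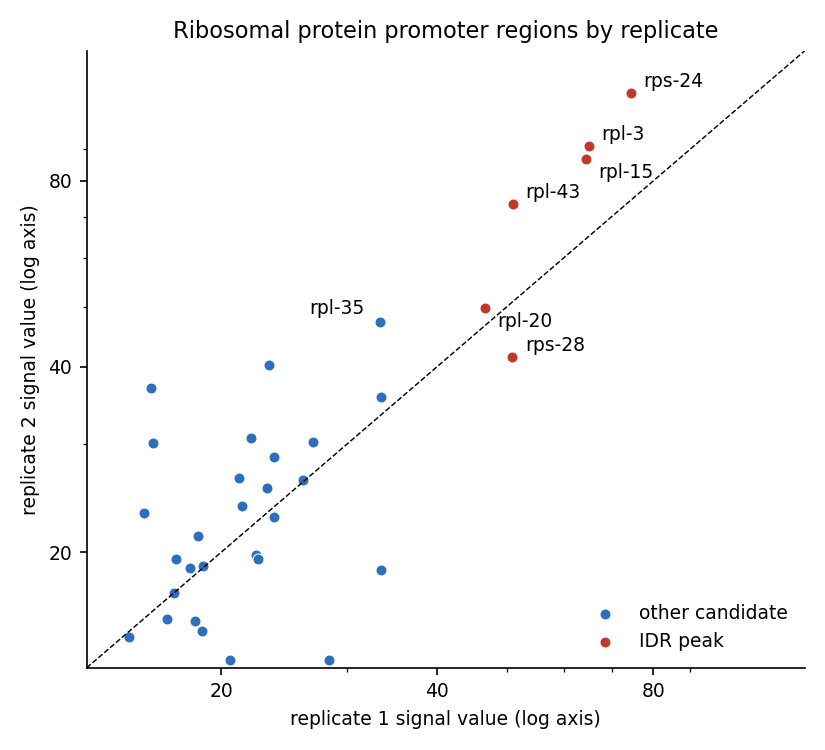
Signal value in replicate 1 (horizontal, log axis) and replicate 2 (vertical, log axis) of the replicate regions that overlap each pooled region at a ribosomal protein gene, for regions found in both replicates; red points are IDR peaks, blue points other candidates, and the dashed line marks equal values. rps-24, rpl-3, rpl-15 and rpl-43 lie at the upper right above the line, rpl-20 close to it and rps-28 below it.

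The lowest signal of an IDR peak and the highest of a candidate outside that list were both 84.0, so that for ribosomal protein genes rps-28 (91.4), rpl-20 (95) and rpl-43 (122) stood nearest above the limit and rpl-35 (81.3) and the shared region of rpl-24.1 and rps-10 (66.0) nearest below it. At rpl-35, a large subunit protein gene, the region ranked 380 in the pooled list, with 33.3 in replicate 1 (rank 1083) and 47.2 in replicate 2 (rank 316), and its summit lay 407 bp upstream. The region between rpl-24.1 and rps-10 on chromosome I ranked 830, with 23.3 in replicate 1 (rank 4541) and 40.3 in replicate 2 (rank 571). Its summit was 242 bp from the start of rpl-24.1 and 368 bp from that of rps-10, and the non-coding RNA D1007.22 lay within 100 bp of it. For both regions the replicates differed more in rank than at the IDR peaks of rps-24, rpl-3 and rpl-15.

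Of the next genes in order of signal, rps-26 (58.7) had 33.4 in replicate 1 and 18.7 in replicate 2, and its region was the one at a ribosomal protein gene with a snoRNA gene, F39B2.14, within 100 bp of the summit; the nearest coding start was that of tmem-107. The genes rps-19, rpl-24.2 and rps-22 had pooled signals of 56.1, 53.2 and 52.8 and came close to equal between replicates. Their values in replicates 1 and 2 were 33.4 and 35.7 for rps-19, 26 and 26.2 for rpl-24.2, and 26.9 and 30.2 for rps-22. The region of rps-29 (52.3; 16.1 and 30.1 in replicates 1 and 2) lay 799 bp upstream and was nearest to snt-2, and that of rpl-13 (49.3; 21.4 and 23.8) lay 947 bp upstream and was nearest to tppp-1. The other named genes were rps-1 (48.2; 22.0 and 30.6), rpl-25.2 (47.7; 16.0 and 36.9) and rps-17 (45.9; no region in replicate 1 and 28.7 in replicate 2). All of these ranked between 1330 and 3271 of the pooled list and none was an IDR peak.

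By subunit, a candidate was present at 26 of 47 large subunit genes (55.3%, 41.2 to 68.6) and at 21 of 31 small subunit genes (67.7%, 50.1 to 81.4), with overlapping intervals, and the median strongest signals were 38.6 and 40.5. IDR peaks were present at 4 of 47 and 2 of 31. Of the stalk protein genes, rla-2 had a region of signal 40.8 with 22.4 in replicate 1 and 19.8 in replicate 2, 67 bp upstream of its start. The gene rla-1 had a weak region in replicate 1 alone (15.8, rank 15513), and rla-0 had no region in any list.

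A pooled candidate was missing at 33 of 81 ribosomal protein genes (40.7%), against 69.1% of all protein-coding genes. Of these, 12 (14.8% of the 81, against 52.8% of all genes) had none in either replicate's list, namely rla-0, rpl-5, rpl-10, rpl-21, rpl-25.1, rpl-28, rpl-29, rpl-32, rps-3, rps-5, rps-6 and rps-25. Of the 33 genes, 8 (24.2%) had a candidate in replicate 1 alone, 10 (30.3%) in replicate 2 alone and 3 (9.09%) in both; over all genes without a pooled candidate the shares were 10.4%, 11.3% and 1.88%. Of the 3 found in both, rpl-22 had the highest value (15 in replicate 1 and 27.3 in replicate 2, ranks 17511 and 2577). In all, 35 of 81 genes (43.2%) had a candidate in the pooled list and in both replicates, against 17.5% of all genes. Since the depth is unknown, absence from a list says that no region was called there, not that the protein was absent. A single promoter region was found at 33 genes, 2 at 14 genes and 3 at rpl-11.2.

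By chromosome, the ribosomal protein genes with an IDR peak numbered 4 of 18 on chromosome IV (22.2%, 9 to 45.2), 1 of 18 on III, 1 of 10 on II, and 0 of 25, 0 of 8 and 0 of 2 on I, V and X. Over all protein-coding genes the share on chromosome IV was 0.914%, on III 1.33% and on II 0.986%. On I, V and X it was 1.70%, 0.821% and 1.21%. With so few ribosomal protein genes on V and X, a count of 0 there says little. Candidates of any strength were present at 15 of the 25 ribosomal protein genes on chromosome I (60.0%, against 38.5% of all genes there), at 13 of 18 on III (72.2%, against 37.1%) and at 13 of 18 on IV (72.2%, against 28.6%). The numbers were 2 of 10 on II (against 31.4%), 4 of 8 on V (against 23.7%) and 1 of 2 on X (against 32.1%).

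The 48 genes shared 59 regions, of which 7 (11.9%) were IDR peaks, against 168 of all 6729 promoter regions (2.50%). Regions at ribosomal protein genes overlapped a candidate of both replicates in 41 of 59 cases (69.5%, 56.9 to 79.7), against 53.5% of all promoter regions. When the summits of both replicates had to lie within 100 bp of the pooled summit, the numbers fell to 26 of 59 (44.1%) and 31.6%. By overlap, a further 9 overlapped one of replicate 1 alone, 7 one of replicate 2 alone and 2 neither. Over the 41 regions the replicate signals had a Spearman's rho of 0.685, and over their 34 distinct pairs of replicate regions 0.609, against 0.416 over the 3597 promoter regions found in both replicates. These are descriptions across regions of the same libraries, and regions are not independent replicates. The value was higher in replicate 2 for 28 of the 41 regions, a count in which some of the 34 pairs enter more than once. The median ratio of replicate 2 to replicate 1 was 1.07, against 1.04 for all promoter regions. Since depth is unknown and each list has its own scale, these values do not measure a difference in binding between replicates.

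Summits at ribosomal protein genes lay a median of 286 bp upstream of the start (summit to start -286 bp, quartiles -468 and -76.5), against -251 bp over all promoter regions. The stretch from 600 to 200 bp upstream held 28 of 59 summits (47.5%, 35.3 to 60.0), against 30.6% of all promoter regions. All 7 IDR peaks at ribosomal protein genes had their summit at least 200 bp upstream of the ribosomal protein start. Their median was -348 bp, against -265 bp over all 168 promoter IDR peaks, of which 102 (60.7%) lay that far upstream. Distances at ribosomal protein genes were taken to that gene's start even where a neighbour started closer. To the nearest coding start, the summits at rpl-43 and rpl-20 were 180 and 115 bp upstream. The part of this assignment in the comparisons with all promoter regions was not tested. Within the first 200 bp downstream of the start lay 12 of 59 summits (20.3%), close to the 20.9% of all promoter regions, and none of these 12 was an IDR peak.

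**Figure D3:**
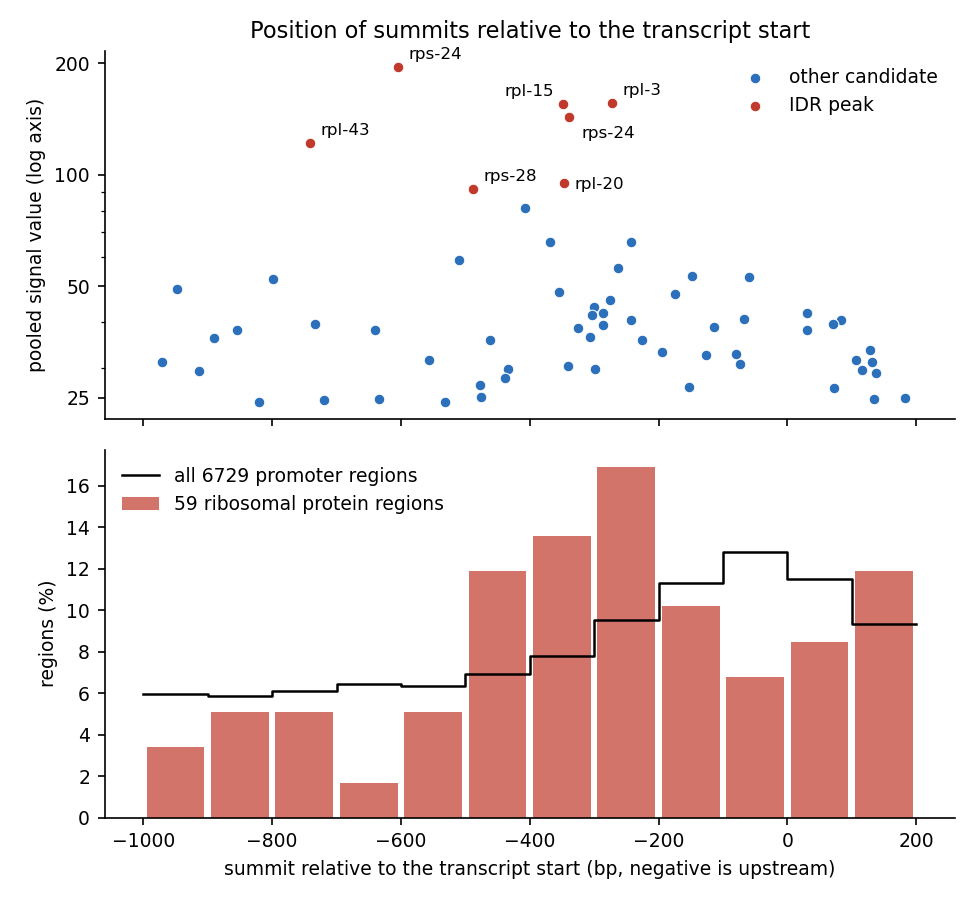
Upper panel: pooled signal (log axis) of each region at a ribosomal protein gene against the position of its summit relative to the transcript start in bp (negative is upstream; a region in the windows of 2 of these genes is drawn at both), with IDR peaks in red and named. Lower panel: percent of summits per 100 bp for the 59 regions at ribosomal protein genes (bars) and all 6729 promoter regions (line); the bars exceed the line from 500 to 200 bp upstream and from 100 to 200 bp downstream.

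Ribosomal protein genes lay close to other genes. Another protein-coding start was present within 1000 bp of the start for 59 of 81 (72.8%, 62.3 to 81.3), against 25.1% of other genes. Accordingly 36 of 59 regions (61.0%) also lay in the window of another coding gene, against 15.3% of all promoter regions, and 33 of them in that of a gene outside the ribosomal protein set. Counted per pair of region and gene, so that regions in several windows weigh alike in both sets, 41 of 64 pairs (64.1%) were in a shared region, against 26.8% of pairs of other genes. A close neighbour moved with the share of genes hit. With a close start, 5 of 59 ribosomal protein genes (8.47%) had an IDR peak against 2.20% of other genes, and 62.7% against 38.9% had a candidate. Without one, 1 of 22 (4.55%, 0.807 to 21.8) against 0.712% had an IDR peak, and 11 of 22 against 28.0% had a candidate. The nearest coding start belonged to a ribosomal protein gene for 44 of 59 regions and for 5 of the 7 IDR peaks.

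Small RNA genes lay beside these regions about as often as beside any promoter region. A tRNA, snoRNA, snRNA, rRNA or miRNA gene lay within 100 bp of the summit for 1 of 59 regions (1.69%), that of rps-26, against 127 of 6729 promoter regions (1.89%). It was so for 0 of the 7 IDR peaks at ribosomal protein genes. Over all IDR peaks it was 89 of 327 (27.2%), and over promoter IDR peaks 24 of 168 (14.3%). Away from such genes, 6 of 81 ribosomal protein genes still had an IDR peak, against 185 of 19892 others (0.930%). Inside the ribosomal protein genes themselves lay 19 snoRNA genes, in 13 of the 81. A candidate summit was within 100 bp of 3 of them (15.8%), B0250.19 in rpl-2 (26.2), B0041.9 in rpl-4 (40.4) and C16A3.11 in rps-13 (25.8), and an IDR peak of none, against 83 (25.4%) and 30 (9.17%) of the 327 other snoRNA genes. The snoRNA genes K11H12.12 and K11H12.13 inside rpl-15 had no candidate, although rpl-15 had the third highest signal of the ribosomal protein genes at its promoter. Of the miRNA genes, mir-353 in rpl-24.1 had a candidate of 25.3. Between gene start and end, 31 of 81 genes (38.3%) held a candidate summit, against 38.5% of all protein-coding genes, and none an IDR peak, against 0.626%. Ribosomal protein genes are shorter, with a median length of 754 bp against 2034 bp for other genes.

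The windows of 50 bp on either side of the summits had a GC content of 42.4 ± 10.7% (SD over 59 windows), near the 41.9% of all promoter regions. At the 7 IDR peaks it was 48.1 ± 6.90%, near the 49 ± 9.42% of all promoter IDR peaks. Individually they ran from 39.6% at rpl-20 and rps-28 to 57.4% at rpl-3. Bases that RefSeq marks as repeats filled at least 50% of the window in 16 of 59 regions (27.1%), against 18.9% of all promoter regions. Among the IDR peaks at ribosomal protein genes it was 3 of 7 (42.9%), against 19.0% of all promoter IDR peaks. Under 90% of 36-base words occurred once in 3 of 59 regions, both of rps-24 and that of rpl-7A (89.2%). Among the IDR peaks at ribosomal protein genes it was 2 of 7 (28.6%), against 78 of all 327 IDR peaks (23.9%).

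Words with a known role or an earlier record in these data were counted in the same windows on both strands. AATCAC, the core of the site of the mammalian GFI proteins, was in 4 of 59 windows (6.78%), against 4.37% of all promoter regions. It was in 0 of the 7 IDR windows, against 9 of all 168 promoter IDR windows (5.36%), a share at which 7 windows may well hold none. The count depended on the width: with 25 bp on either side it was 1 of 59 (1.69%, against 2.02%), and with 100 bp on either side 8 of 59 (13.6%, against 8.93%). TTTCAG, which resembles the worm 3' splice site, was in 9 of 59 (15.3%), against 14.4%, and AGAGAG, counted because earlier results of these data had shown it at many peaks, in 1 of 59 (1.69%), against 10.3%. The B box of tRNA genes was in none, against 0.550% of all promoter regions. The absence of these letters from a window says nothing more about the factor.

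Other words were picked by eye from the sequences printed above, after the signal values had been seen. The choice among 17 words counted was made after their shares upstream of the remaining ribosomal protein genes and of other genes were known. Their shares are therefore a description with no test. CGAGTGT is in the windows of rpl-3, rpl-15 and rpl-20, and CTACGGT in those of rpl-3, rpl-15 and rpl-43, read on the opposite strand at rpl-43. These 4 genes are of the large subunit. In the 1000 bp upstream of the start, small subunit genes had the words too, for example CGAGTGT at rps-7 and rps-13 and CTACGGT at rps-1 and rps-9. Among promoter IDR peaks at no ribosomal protein gene, 2 of 161 windows (1.24%) held CGAGTGT and 3 of 161 (1.86%) CTACGGT. Over the 59 windows at ribosomal protein genes, 8 held CGAGTGT, against 50 of 6670 other promoter regions (0.750%), and 5 held CTACGGT, against 37 of 6670 (0.555%). These counts include the printed windows from which the words were picked. Of the 52 windows at ribosomal protein genes that were no IDR peak, 5 (9.62%) held CGAGTGT and 2 (3.85%) CTACGGT. The windows of rpl-6 (signal 30.5) and rpl-11.2 (38.5) held both words as well, and that of the region between rpl-24.1 and rps-10 (66.0), of rpl-24.2 (53.2) and of rpl-13 (49.3) held CGAGTGT, so the words were present at regions of low signal too. AAAGGGGAG, which the stronger rps-24 window holds 3 times, was in both rps-24 windows, in no other of the 59, and in 7 of the 161 other promoter IDR windows (4.35%).

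The words CGAGTGT and CTACGGT were also frequent upstream of the ribosomal protein genes not printed above. The choice among the 17 words was made with the shares at these genes known, so they are no independent set. In the 1000 bp upstream of the start, CGAGTGT was present at 17 of the 74 genes not printed above (23.0%), against 939 of 19892 other genes (4.72%), and CTACGGT at 16 of 74 (21.6%), against 898 (4.51%). At least 1 of the words was present at 27 of these 74 genes (36.5%), against 8.99% of other genes. Of the genes not printed above that had a candidate, 12 of 41 (29.3%) had CGAGTGT and 8 of 41 (19.5%) CTACGGT. Of the genes without a candidate it was 5 of 33 (15.2%) and 8 of 33 (24.2%), so the words were present at genes of both kinds. Their 21 and 19 occurrences upstream of all ribosomal protein genes had median distances of 318 and 363 bp from the start, against 479 and 450 bp upstream of other genes. These occurrences include those in the printed windows from which the words were picked, and divergent neighbours such as rpl-24.1 and rps-10 count the same occurrence. Of the other 15 words counted, none had a share upstream of the 74 genes above 3 times that of other genes.

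Genes of related function gave a setting for these counts, from lists defined by gene names or symbols. Mitochondrial ribosomal protein genes, which encode the separate ribosome of that organelle, had a candidate at 34 of 70 (48.6%) and an IDR peak at 3 (4.29%, 1.47 to 11.9). These were mrps-35 (96.9; 14.0 in replicate 1 and 62.6 in replicate 2), mrpl-23 (87.9; 53.1 and 35) and mrpl-15 (85.8; 37.5 and 50). Translation initiation factor genes had a candidate at 23 of 33 (69.7%) and an IDR peak at 3 (9.09%, 3.14 to 23.6), all of the eIF3 complex that brings the small subunit to the messenger RNA. Their signals were 100 at eif-3.I, 91.3 at eif-3.B and 86.3 at eif-3.E. Of 6 elongation factor genes 3 had a candidate and eef-1A.2 an IDR peak (93.9; 34.8 and 60.9 in replicates 1 and 2). Of 18 genes for ribosome biogenesis and RNA polymerase I 12 had a candidate and 1 an IDR peak, that of fib-1, the nucleolar methyltransferase fibrillarin (118; 62.0 and 60.3), shared with mut-15. The intervals of these lists overlapped that of the 7.41% at cytoplasmic ribosomal protein genes. Over the related lists together, 8 of 129 genes had an IDR peak, but 4 were hit by as many strongest regions of replicate 1 alone and 5 by those of replicate 2 alone, where the cytoplasmic ribosomal protein genes had 6 in each. Ribosomal protein genes outside the naming rule had 1 candidate among 3, at ubq-2 (40.3, rank 5176), and none at ubl-1 or rack-1.

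**Figure D4:**
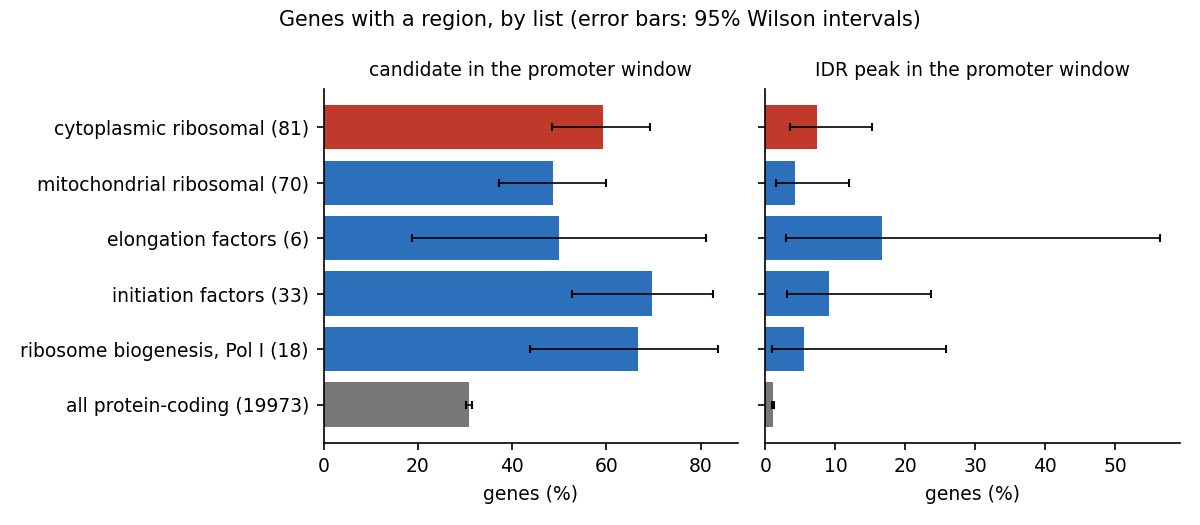
Percent of genes with a candidate region (left) and an IDR peak (right) in the promoter window for the cytoplasmic ribosomal protein genes (red), lists of related function (blue) and all protein-coding genes (grey), with the number of genes in brackets; error bars are 95% Wilson intervals and cover counting error only. The bars of the ribosomal protein genes (59.3% and 7.41%) lie within the range of the other lists, and the bar of all genes (30.9% and 1.11%) is the lowest drawn in both panels; the list of 3 ribosomal protein genes outside the naming rule is not drawn.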

How the data were processed

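Regions came from the deposited ce11 lists in narrowPeak format: candidates of the pooled replicates, candidates of each replicate, and the peaks past the authors' IDR threshold on the pooled replicates. Per the file headers and labels these hold, for each region, a signal value given by the authors, a deposited −log10 q-value and a summit position; the sources used here do not give the aligner, peak caller, IDR threshold or depth. The ce10 lists were not used here. Transcript starts of protein-coding transcripts on 6 chromosomes were taken from Ensembl release 115 and sequence from the RefSeq genome of WBcel235. Replicate regions were matched to pooled regions by an overlap of at least 1 bp, taking the strongest. Counts were set beside those of all protein-coding genes, with 95% Wilson intervals (scipy 1.17.1) and no test, since there is 1 group of 2 replicates. The assignment of summits was tested on simulated regions. The members, lists and words were chosen with earlier results of these data known. Named genes were those with an IDR peak, the 12 next by signal, those with a small RNA gene nearby, the rla genes, and genes of related lists with an IDR peak. Symbols nol-5 and rrbs-1 matched no gene. Alternatives covered windows, assignment, overlap and leaving out each replicate.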

Additional observations from a re-analysis of the deposited data

How the results depend on the processing

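Over 52 alternatives, 39 values stayed near the reported ones and 13 moved. For counts, near was a fixed limit on the ratio, wide enough to take in changes from 6 genes to 4 or to 9. For medians and means, near was a difference below the SD between replicates. Neither limit took the share of other genes into account. Ribosomal protein genes with an IDR peak numbered between 4 and 9. There were 4 by nearest coding start (4.94%, against 1.57% of other genes) and 4 in the stronger part of the IDR list (4.94%, against 0.573%). The 1000 strongest candidates gave 9 (11.1%, against 2.53%). A window from 500 bp upstream to 100 bp downstream gave 5 (6.17%, against 0.759%) and lost rpl-43. A window from 2000 bp upstream to 500 bp downstream gave 7 (8.64%, against 1.51%) and added rps-16 through the fib-1 peak. Genes with a candidate numbered between 37 in the narrower window (45.7%, against 19.8% of other genes) and 64 in the wider one (79.0%, against 46.5%). Counting each candidate for its nearest coding start, at any distance, gave 55 genes (67.9%), against 52.2% of other genes, a smaller excess than in the promoter window. This count takes in regions far from any promoter, so it does not isolate the effect of shared promoters. The count of 41 regions present in both replicates was 26 when summits had to lie within 100 bp, and the 36 regions shared with another coding gene became 19 of 41 in the narrower window, which holds fewer regions. Mean GC content was 43.3% in windows of 25 bp either side of the summit and 40.4% in 100 bp either side, and the AATCAC count of 4 became 1 and 8. Leaving out a replicate used the other's own list, whose signal scale is its own: the median strongest signal ran from 19.7 to 23.0, the median summit from -292 to -254 bp, GC content from 41.4 to 41.9%, and IDR-sized hits in the related lists from 4 to 5 in place of 8. Hits at ribosomal protein genes stayed at 6 (7.41%) without either replicate. The share of other genes was 1.04% without replicate 1 and 0.945% without replicate 2. No paired analysis was possible because there is 1 group. The 2 replicates, the unknown depth and the lack of a control here limit all counts.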
